A study of Rattus norvegicus with 54 samples.

Results

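Liver of rats fed a high-fructose diet with nordihydroguaiaretic acid (HFrD-NDGA) was compared with liver of rats kept on chow, on the arrays whose labels carry no INS mark. The members were 6 of the 54 arrays of the series, 3 HFrD-NDGA and 3 chow. They were taken by tissue, diet and the absence of INS in the labels. All 19791 genes with a name on the array were tested, including the joined symbols of probes that carry several. The rats were male Sprague-Dawley rats, all acclimatized on chow and, according to the study's methods, fasted before they were killed. One group then received HFrD with NDGA, a second received HFrD alone, and the third stayed on chow. The sample labels give 16 weeks of feeding and an NDGA dose of 2.5 g per g of HFrD, while the design text of the series gives 8 weeks and 2.4 g per kg of diet, and age was not given. Liver RNA of the rats of a group was pooled in equal amount and hybridized on 3 repeat arrays. Each group was therefore 1 pool, and every p-value measured the spread between arrays of a pool and not the spread between rats. In whole liver, fewer cells of a type and less RNA per cell cannot be told apart.

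The liver takes up dietary fructose, which ketohexokinase and the later enzymes of fructolysis turn into building blocks for fatty acids. The opposite arm of fat metabolism burns fatty acids in mitochondria and peroxisomes, and in rodents many of its genes are targets of PPARα, a nuclear receptor that fatty acids and fibrate drugs activate. NDGA is a phenolic compound of the creosote bush, known as an inhibitor of lipoxygenases and as an antioxidant. The comparison asks for the net state of the treated liver relative to chow, with the fructose diet and NDGA acting together. By the study's methods, the HFrD was also made with casein, lard, cellulose and mixes of minerals and vitamins, while controls ate standard chow. Effects of these other ingredients cannot be told apart from those of fructose and NDGA.

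Values are intensities after quantile normalization, raised to a floor of 16, and changes are log2 differences, HFrD-NDGA minus chow, with limma's moderated standard error (SE) and a p with the Benjamini-Hochberg adjustment across the 19791 genes. A gene rose or fell where that adjusted p was under 0.05. At that threshold 3472 genes were higher (17.5% of those tested) and 2610 were lower (13.2%) in HFrD-NDGA liver, which is 30.7% of the genes, and 416 of the higher and 569 of the lower ones differed at least 2-fold. The arrays of the groups did not overlap for 39.7% of all genes. HFrD-NDGA arrays were dimmer before scaling, with log2 medians of 6.44 to 6.85 against 6.94 to 7.20 on chow, and a detection p under 0.05 was reached by 53.2% to 58.1% of their probes against 59.5% to 60.2% on chow. Scaling moved the balance of the calls. With each array centred on its own median instead, the median change of all genes was 0.31 and the counts were 7463 higher and 2239 lower. Without any scaling the median change was -0.16, with 1860 genes higher and 3747 lower. The part of array brightness in single calls was not tested, and where centring or no scaling ended a call or turned a sign, this is given beside the gene. A gene that was not above background in 1 of the groups has a lower bound on its fold, computed against the dimmest detected probe of each array of that group, and a gene above background in neither has none. Of the tested genes, 59 reached saturation on an array.

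The liver label was checked against markers. Albumin, transferrin and transthyretin transcripts (Alb, Tf, Ttr) were at or near saturation on all 6 arrays. Of 12 hepatocyte markers 0 rose and 6 fell. Their summed intensity ran from 488349 to 510773 in HFrD-NDGA liver and from 522518 to 571779 in chow liver. Saturation was reached by 6 of the 12 on at least 1 liver array without INS, so the sum does not size a difference. Macrophage markers summed to 34007 to 37650 in HFrD-NDGA liver and 37992 to 41583 in chow liver, with 0 of 11 higher and 5 lower. Lymphocyte markers summed to 1437 to 1749 in HFrD-NDGA liver and 2567 to 2725 in chow liver, with 1 of 12 higher and 4 lower. Skeletal muscle markers summed to 397 to 473 in HFrD-NDGA liver and 660 to 727 in chow liver, with 4 of 8 lower and the myosins Myh2 and Myh4 at the floor. Kidney and gut markers summed to 689 to 918 in HFrD-NDGA liver and 1056 to 1247 in chow liver, with 3 of 8 lower and Vil1 and Mep1a at the floor. The adipocyte sums, 2308 to 2491 in HFrD-NDGA liver and 2217 to 2406 in chow liver, overlapped, with 3 of 8 higher and 1 lower, and Plin1, Lep and Fabp4 were not above background. Cholangiocyte markers summed to 3283 to 3439 in HFrD-NDGA liver and 2956 to 3093 in chow liver, with 1 of 9 higher and 1 lower. Exocrine pancreas markers summed to 6446 to 7595 in HFrD-NDGA liver and 5153 to 5839 in chow liver, with 1 of 6 higher, 0 lower and Cela2a and Pnlip at the floor. Marker counts and sums were not recomputed with centring or without scaling. The part of these cell types in the results below was not tested.

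By distance over all genes, the HFrD-NDGA arrays lay farther from chow than from HFrD. The mean root mean square difference between arrays was 0.627 log2 for HFrD-NDGA and chow, 0.522 for HFrD-NDGA and HFrD and 0.501 for HFrD and chow, and 0.279 to 0.394 between arrays of 1 group. The third HFrD-NDGA array stood somewhat apart on the first principal component, at 22.4, against 46.2 and 46.95 for the other HFrD-NDGA arrays and -34.3 to -42.2 for chow. It was also the brightest of its group.

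The largest rise belonged to Acot1, a cytosolic acyl-CoA thioesterase that splits long-chain fatty acyl-CoA into fatty acid and CoA. Its normalized intensity was 23784, 25058 and 23018 on the HFrD-NDGA arrays and 75.9, 94.6 and 67.8 on the chow arrays. On HFrD without NDGA it was 42.2, 35.4 and 34.7, below every chow array. The change against chow was 8.25 (SE 0.13, adjusted p = 6.7e-07 in limma), a 304-fold difference. Vnn1, the pantetheinase that frees cysteamine and pantothenate, was at 5684, 5555 and 6435 in HFrD-NDGA liver and at 316, 254 and 236 in chow liver, 22-fold higher. Near-identical copies in the Acot family could share signal, so the split among its members is less certain than the rise of the family.

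**Figure D1:**
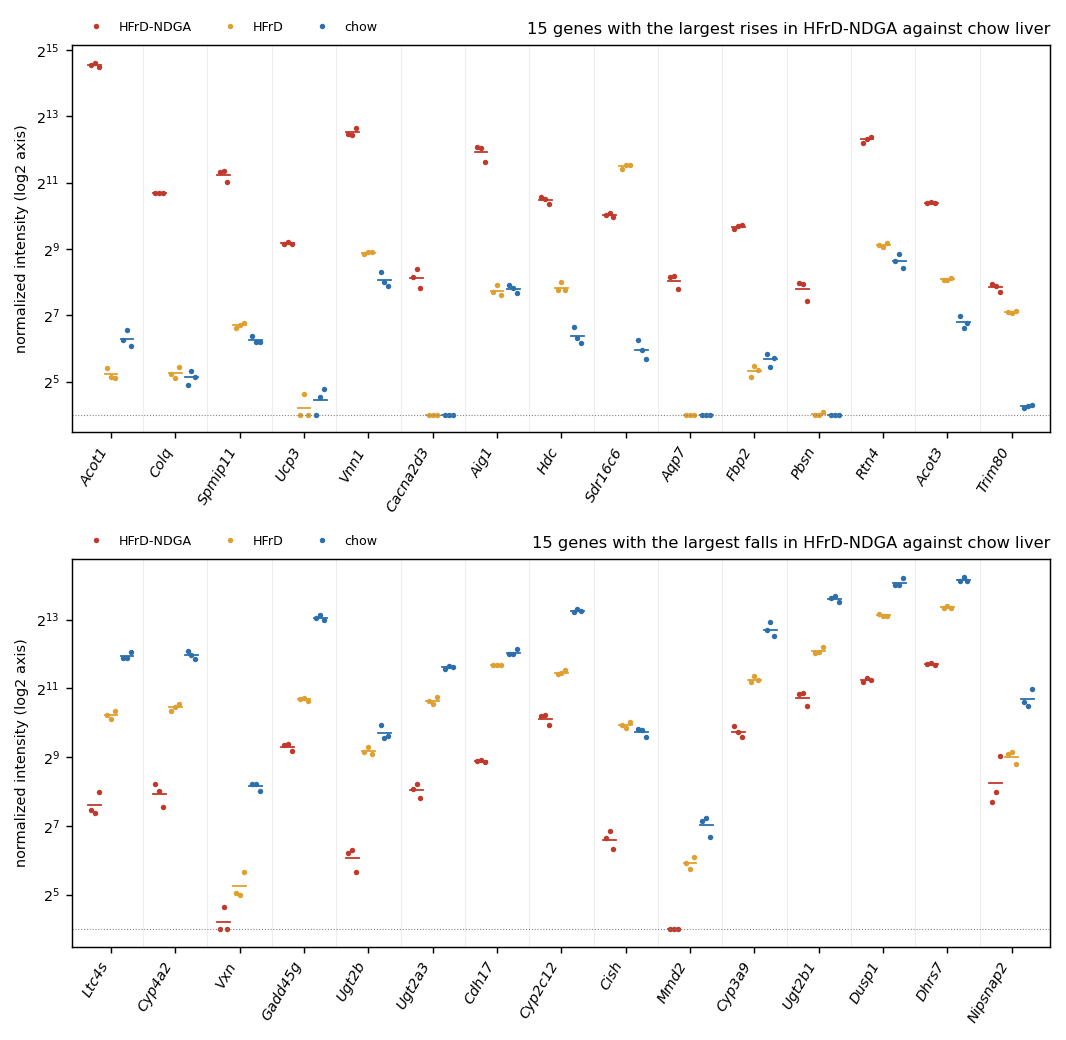
Normalized intensity (log2 axis, floor of 16 as a dotted line) of the 15 named genes with the largest rises (top) and the 15 with the largest falls (bottom) on the 3 arrays each of HFrD-NDGA, HFrD and chow liver. Points are arrays and lines are means of the log2 values, and for Acot1 the HFrD-NDGA arrays lie at 23018 to 25058 while all HFrD and chow arrays lie under 100.

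The genes named by rule were the 15 largest rises and 15 largest falls among genes that passed, were unsaturated, were detected on every array of the brighter group and had groups that did not overlap. All 30 kept their direction and call in each of the 22 alternative settings run. Besides Acot1, Acot3 and Vnn1, the rises included a group of genes that were not above background on chow. Colq, the collagen tail of acetylcholinesterase, was at 1647, 1648 and 1655 in HFrD-NDGA liver against 29.8, 40.3 and 35.3 in chow liver, at least 24.3-fold higher. Ucp3, an uncoupling protein of the mitochondrial inner membrane known from muscle, was at 568, 589 and 566 in HFrD-NDGA liver and at or below 27.4 in chow liver, at least 8.45-fold higher. Fbp2, the muscle form of fructose-1,6-bisphosphatase, was at least 12-fold higher. Aqp7, a channel that passes glycerol, was at 287, 290 and 222 in HFrD-NDGA liver and at the floor on every chow array, at least 3.89-fold higher. Cacna2d3, a calcium channel subunit, Pbsn, a prostate secretory protein, and Trim80 had bounds of at least 4.10-fold, 3.23-fold and 3.38-fold.

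Other rises were measured on both sides. Hdc, which makes histamine from histidine, rose by 4.10 (SE 0.14), with 1506, 1465 and 1316 in HFrD-NDGA liver and 100.9, 79.8 and 71.1 in chow liver. Aig1, a hydrolase of fatty acid esters of hydroxy fatty acids, rose by 4.12 (SE 0.14), and Rtn4, a protein that shapes endoplasmic reticulum tubules, rose by 3.66 (SE 0.10). Spmip11 rose by 4.97 (SE 0.10). Sdr16c6, a short-chain dehydrogenase, rose by 4.06 against chow but differed from the other 14: its HFrD-NDGA arrays, at 1045, 1087 and 1007, lay below the HFrD arrays, at 2740, 2935 and 2978, and only 1 of the 3 chow arrays was above background.

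The deepest named fall was that of Ltc4s, leukotriene C4 synthase. It was at 176, 165 and 254 in HFrD-NDGA liver and at 3811, 3808 and 4258 in chow liver, 20.3-fold lower (change -4.34, SE 0.16, adjusted p = 1.2e-05 in limma). Cyp4a2, a fatty acid omega-hydroxylase, was at 297, 259 and 188 in HFrD-NDGA liver and at 4373, 3979 and 3718 in chow liver, 16.5-fold lower. Gadd45g, a growth arrest gene, was 13.5-fold lower and Dusp1, a phosphatase of MAP kinases, 7.12-fold lower. Cdh17, a cadherin of liver and intestine, was 8.87-fold lower. Dhrs7, a dehydrogenase of the short-chain family, was 5.48-fold lower, and Vxn and Mmd2 were at least 3.34-fold and 1.51-fold lower. Nipsnap2 was 5.46-fold lower by its brighter probe (change -2.45), and its change was -1.06 as the mean with a further, dimmer probe.

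Several of the named falls were enzymes of drug and steroid handling. Ugt2a3, a glucuronosyltransferase, was at 271, 296 and 224 in HFrD-NDGA liver and at 3015, 3230 and 3155 in chow liver, 12-fold lower. Ugt2b1 was 7.36-fold lower, and Ugt2b, which was not above background in HFrD-NDGA liver, at least 9.83-fold lower. Cyp2c12, a steroid hydroxylase that in rat is more abundant in females, was at 1163, 1208 and 984 in HFrD-NDGA liver and at 9598, 10075 and 9677 in chow liver, 8.78-fold lower. Cyp3a9 was 7.83-fold lower. The Cyp2c and Ugt2b families hold close paralogs, so signal may be shared among their members.

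Cish encodes an inhibitor of cytokine signalling that growth hormone induces through STAT5. Its intensity was 99.4, 114 and 80.2 in HFrD-NDGA liver, 984, 928 and 1041 in HFrD liver and 898, 888 and 771 in chow liver. It was 8.77-fold lower in HFrD-NDGA than in chow liver (change -3.13, SE 0.13, adjusted p = 2.1e-05 in limma), while HFrD minus chow was 0.21 and did not pass. Its promoter is shown because its STAT5 sites are well known. The RefSeq window of GRCr8, chr8:116850719-116851018 on the plus strand, runs from 250 bases before to 50 bases after the start, with the matches of TTCNNNGAA in capitals.
Cish: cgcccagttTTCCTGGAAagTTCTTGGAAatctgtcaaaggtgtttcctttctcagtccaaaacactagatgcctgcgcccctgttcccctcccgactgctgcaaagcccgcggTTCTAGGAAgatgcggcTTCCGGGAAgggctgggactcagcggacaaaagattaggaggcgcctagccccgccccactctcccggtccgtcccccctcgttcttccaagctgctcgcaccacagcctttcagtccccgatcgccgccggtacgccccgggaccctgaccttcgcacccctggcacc
The 4 matches begin at -241, -230, -136 and -119 relative to the start. The motif reads the same on both strands. At least 1 match was found in 8.87% of 33469 promoters of that length, and at least 4 in 2 of them (0.00598%). Of the 14 members of the growth hormone list below that fell, 13 had a promoter in the table, and 1 of these, that of Cish, held a match.

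Growth hormone and IGF genes as a list were shifted downward. Of 24 genes of growth hormone signalling, IGF carriage and sex-biased liver expression, 4 were higher (17.5% of all genes were) and 14 lower (13.2% of all genes were), with a median change of -0.57 against 0 for all genes tested. Centring left 6 higher and 5 lower. Igfbp1, an IGF-binding protein that insulin represses, was at 1932, 1875 and 1710 in HFrD-NDGA liver and 9102, 9039 and 8129 in chow liver, a change of -2.25 (SE 0.08), and on HFrD alone it fell by 1.57. Rgn, regucalcin, fell by 1.53 (SE 0.21). Igf1 fell by 0.87 (SE 0.07), at 3798, 4235 and 3693 in HFrD-NDGA liver against 7354, 7495 and 6513 in chow liver. The calls of Igf1, of its carriers Igfbp3 (-0.86) and Igfals (-0.67), and of Obp3 (-0.86), a male-biased secreted protein of rat liver, were lost with centring. The prolactin receptor Prlr rose by 0.64, a call lost without scaling.

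Genes of fatty acid oxidation rose together. Of 25 mitochondrial beta-oxidation and ketogenesis genes, 17 rose and 0 fell, with a median change of 0.60, and of 28 peroxisomal genes 19 rose and 2 fell, with a median of 0.58. The background was 17.5% of all genes higher and a median of 0. With centring the counts were 24 and 25 higher, and without scaling 17 and 19, so the direction of both lists held under each scaling. Thioesterases and pantetheinases had 10 of 13 members higher, 2 lower and a median of 1.20.

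**Figure D2:**
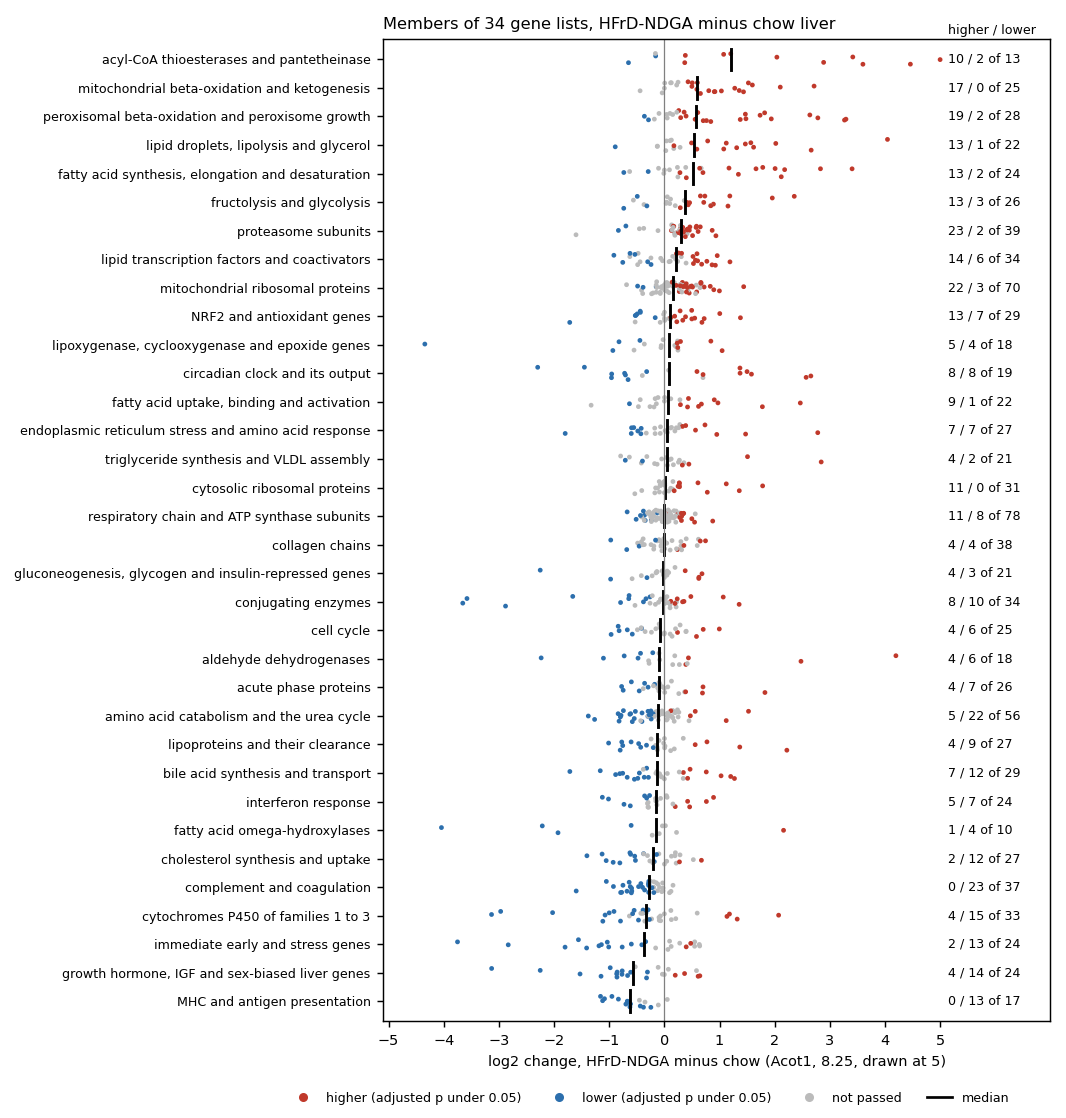
Log2 change, HFrD-NDGA minus chow, of the members of 34 gene lists, 1 point per gene and a bar at each list's median, with the counts of higher and lower members at the right and Acot1 drawn at 5 in place of 8.25. Thioesterases, mitochondrial and peroxisomal oxidation and lipid droplet genes lie at the top, with medians of 0.54 to 1.20, and MHC genes at the bottom, with a median of -0.62.

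Entry of fatty acids into mitochondria needs carnitine palmitoyltransferases. Cpt1b, the muscle form of the outer enzyme, was at 601, 668 and 606 in HFrD-NDGA liver and 149, 134 and 154 in chow liver, a rise of 2.10 (SE 0.09). Cpt1a, the liver form, rose by 1.03 (SE 0.17) and did so by 1.07 on HFrD alone. Cpt2, the inner enzyme, rose by 1.596 (SE 0.13). Crat, carnitine acetyltransferase, was at 3806, 3855 and 3357 in HFrD-NDGA liver and at 611, 543 and 525 in chow liver, a rise of 2.71 (SE 0.08), while its HFrD arrays differed from chow by -0.26 without passing. Both chains of the trifunctional protein rose, Hadha by 0.92 and Hadhb by 1.52. So did Decr1 (1.44) and Eci1 (1.28), which handle double bonds of unsaturated fatty acids, and Acat1 (1.36), a thiolase of ketone body metabolism.

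Large rises were found among genes of peroxisomal beta-oxidation. Ehhadh, the bifunctional enzyme, was at 58735, 54904 and 56817 in HFrD-NDGA liver and at 8497, 9110 and 7260 in chow liver, a rise of 2.78 (SE 0.08). The thiolase Acaa1b rose by 3.27, a size that saturation of its HFrD-NDGA arrays may have cut short, and its close copy Acaa1a rose by 0.30. Ech1, an auxiliary isomerase, rose by 2.64, and Crot, which exports shortened chains as carnitine esters, by 1.74. Pex11a, which drives peroxisome division, was at 1521, 1607 and 1320 in HFrD-NDGA liver and at 142, 157 and 153 in chow liver, a rise of 3.29 (SE 0.08). Among importers of acyl-CoA, Abcd3 rose by 1.38 and Abcd2 was at least 2.06-fold higher. The falls of Acox2, the bile acid oxidase (-0.36), and Scp2, a sterol carrier and thiolase (-0.29), changed sign with centring.

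Among the remaining thioesterases, the mitochondrial Acot2 was at 5794, 5844 and 6188 in HFrD-NDGA liver and at 586, 540 and 543 in chow liver, a rise of 3.42 (SE 0.06). Acot3, among the named rises, was at 1322, 1377 and 1323 in HFrD-NDGA liver and at 126, 97.9 and 109.1 in chow liver, 12.1-fold higher. Acot4 rose by 2.89 and Acot5 by 2.04, both peroxisomal in rodents. Acot7, a cytosolic form, rose by 1.20, and the acetyl-CoA thioesterase Acot12 by 1.07. Baat, which joins bile acids to amino acids, fell by 0.65, a call lost with centring. Acot13, a mitochondrial form, had a change of -0.16 that turned positive with centring.

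Omega-hydroxylases of the Cyp4 families, which start the breakdown of fatty acids from the far end, went both ways. Of 10 measured, Cyp4a3 alone rose, by 2.16 (SE 0.14), at 30174, 33722 and 29067 in HFrD-NDGA liver against 7615, 7764 and 5592 in chow liver. Cyp4a2, a close copy of it, had the large fall given above, so part of the signal of either probe may come from the other gene. Cyp4a8 fell by 1.93, Cyp4f6 by 2.21 and Cyp4f1 by 0.60, the last lost with centring. Cyp4a1 and Cd36 share their probes with other symbols. They were tested only under joined symbols and are not reported here.

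PPARα itself, encoded by Ppara, was at 845, 755 and 1018 in HFrD-NDGA liver and 559, 473 and 407 in chow liver, and the groups did not overlap. Its rise of 0.86 (SE 0.16, adjusted p = 0.0089 in limma) was small beside those of the oxidation genes. The HFrD arrays differed from chow by 0.04. Nr1i3, the xenobiotic receptor CAR, rose by 1.19 (SE 0.10), with 2122, 1796 and 1758 in HFrD-NDGA liver against 846, 908 and 736 in chow liver, and fell by 0.75 on HFrD alone. Rxrg, a partner receptor, rose by 0.92 and Cebpa, a hepatocyte factor, by 0.96. Srebf1 and Mlxipl (ChREBP), which drive fat synthesis, rose by 0.56 and 0.59. Of 34 lipid transcription factors and coactivators 14 were higher and 6 lower. The probe of Ppargc1a was not above background in either group. A strict PPARα-type element, 2 copies of AGGNCA with 1 base between them on either strand, was in 0.415% of all 33469 promoter windows. It was in 0 of the 38 promoters available for the 46 higher members of the oxidation and thioesterase lists. With an element this rare in the windows, 0 of 38 cannot show whether PPARα controls these genes.

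Of 22 genes of fatty acid uptake, binding and activation, 9 were higher and 1 lower, with a median of 0.06. Acsm5, a medium-chain acyl-CoA synthetase, was at 1377, 1349 and 1204 in HFrD-NDGA liver and 218, 265 and 230 in chow liver, a rise of 2.46 (SE 0.10). Fabp7, a fatty acid-binding protein best known from brain, rose by 1.78 (SE 0.10). Fabp5 rose by 0.90 on HFrD-NDGA and by 2.87 on HFrD.

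Lipid droplet and lipolysis genes were mostly higher, 13 of 22 with 1 lower. Cidea, a protein that enlarges droplets, was at 8523, 8666 and 9267 in HFrD-NDGA liver and at 2265, 2046 and 2213 in chow liver, a rise of 2.02 (SE 0.05). On HFrD alone it fell by 1.41. The droplet coat proteins Plin2 and Plin5 rose by 1.47 and 1.62, while Plin3 fell by 0.89, a call lost with centring. Mgll, the monoglyceride lipase, rose by 1.31, Abhd5, the activator of adipose triglyceride lipase, by 1.08, and the glycerol channel Aqp3 was at least 4.21-fold higher. Gpd2, the mitochondrial glycerol phosphate dehydrogenase, rose by 1.57. Lpl, lipoprotein lipase, which adult liver holds at a low level, was at 672, 505 and 552 in HFrD-NDGA liver and at 129, 131 and 110 in chow liver, a rise of 2.22 (SE 0.12). Its inhibitor Angptl4 rose by 1.37, and by 1.31 on HFrD, while hepatic lipase Lipc fell by 1.01, a call lost with centring.

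Genes of fatty acid synthesis were also above chow. Of 24, 13 were higher and 2 lower, with a median change of 0.52, and both falls were lost with centring. Scd1, the stearoyl-CoA desaturase, was at 14794, 14237 and 13363 in HFrD-NDGA liver and 1880, 2390 and 1740 in chow liver, a rise of 2.83 (SE 0.11). Fasn, fatty acid synthase, was at 4480, 4799 and 4244 in HFrD-NDGA liver and 1158, 1205 and 1005 in chow liver, a rise of 2.01 (SE 0.08). Malic enzyme Me1, a source of NADPH, rose by 3.40 (SE 0.23) and the elongase Elovl6 by 2.12 (SE 0.12). Acly, which supplies acetyl-CoA, rose by 1.34, Thrsp, a lipogenic cofactor, by 1.17, and acetyl-CoA carboxylase Acaca was at least 1.99-fold higher.

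The same chow arrays served both fructose diets, so the following values stand side by side and share them. HFrD alone called 16% of all genes against chow, and HFrD-NDGA against HFrD called 15.2%. Fasn was up by 2.01 on HFrD-NDGA and by 3.12 on HFrD, and the direct difference, HFrD-NDGA minus HFrD, was -1.11. That difference also passed for Scd1 (-0.81), Acly (-0.59) and Thrsp (-0.34), all nearer to chow with NDGA but above it. It did not pass for Me1 (0.23). Elovl6 (0.55) and the desaturase probe Scd (1.77) were higher with NDGA than without. Oxidation genes stood the other way: HFrD-NDGA minus HFrD was 2.57 for Ehhadh and 1.40 for Cpt2, both past the threshold, and HFrD minus chow was 0.21 and 0.20, neither past it.

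**Figure D3:**
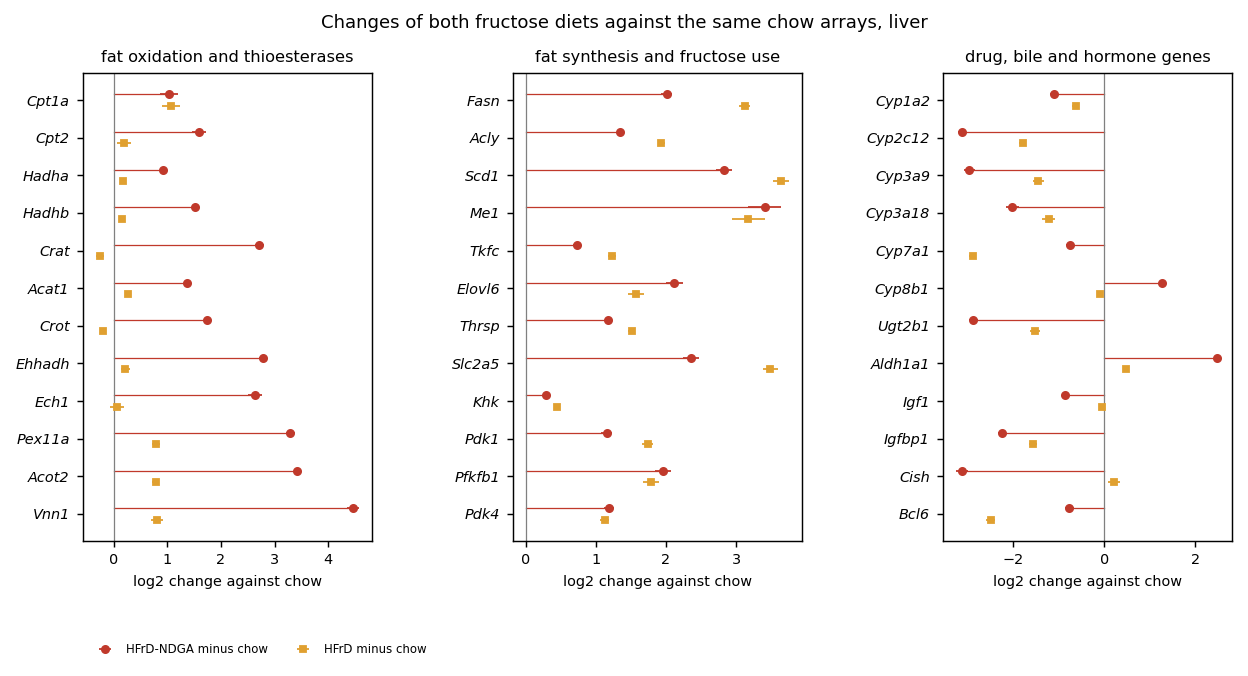
Log2 change against the same 3 chow arrays for HFrD-NDGA (circles) and HFrD (squares) liver, for 12 genes each of fat oxidation, fat synthesis with fructose use, and drug, bile and hormone handling, with bars for limma's SE. Oxidation genes other than Cpt1a have their circle well right of the square, and for synthesis genes such as Fasn (2.01 and 3.12) and Acly (1.34 and 1.93) the square lies farther out.

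Genes of fructose entry and glycolysis were mostly above chow or level with it. Of 26 genes 13 were higher and 3 lower, with a median of 0.38, and the 3 falls were lost with centring. Slc2a5, the fructose transporter, was at 301, 296 and 226 in HFrD-NDGA liver and not above background in chow liver, at least 4-fold higher. Pfkfb1, which sets fructose-2,6-bisphosphate, rose by 1.96 (SE 0.11). Khk, ketohexokinase, rose by 0.29, and Tkfc, the triokinase of the last step, by 0.73. The kinases that inhibit pyruvate dehydrogenase were higher too, Pdk4 by 1.19 and Pdk1 by 1.15. Pklr, liver pyruvate kinase, had 1297, 1103 and 1312 in HFrD-NDGA liver and 716, 693 and 661 in chow liver, without overlap, and its change of 0.84 had an adjusted p of 0.12 in limma but passed with centring. Fgf21, a fasting and fructose-responsive hormone, rose by 0.56 on HFrD-NDGA and by 1.53 on HFrD.

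Of 21 genes of triglyceride synthesis 4 were higher and 2 lower, shares near the 17.5% and 13.2% of all genes, or 9 and 2 with centring. Lpin1, a phosphatidate phosphatase, rose by 1.51 (SE 0.11) and by 1.86 on HFrD, and Gpat3, an acyltransferase at the floor on every chow array, was at least 1.69-fold higher. Dgat2, which closes the pathway, had a change of -0.40 that turned positive with centring.

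Cholesterol synthesis and uptake genes were lower, 12 of 27 with 2 higher, but with centring the counts turned to 3 lower and 9 higher. On the liver INS arrays 21 were lower and 0 higher, with a median of -0.745. List counts on those arrays were not recomputed with centring or without scaling. Falls that held with centring and without scaling were those of Tm7sf2, a sterol reductase, at 4969, 4522 and 4578 in HFrD-NDGA liver against 12890, 12199 and 12138 in chow liver (-1.40, SE 0.05), Idi1 (-1.13) and Pmvk (-1.06), enzymes of the isoprenoid steps. Insig1, a brake on SREBP processing, rose by 0.67. Bile acid genes were split, 7 higher and 12 lower of 29, or 9 and 3 with centring. Cyp8b1, the 12-alpha-hydroxylase of cholic acid synthesis, was at 18827, 17185 and 18876 in HFrD-NDGA liver and at 7721, 7180 and 7841 in chow liver, a rise of 1.27 (SE 0.05). Cyp7a1, the rate-limiting enzyme, had 1736, 1719 and 1597 in HFrD-NDGA liver and 2672, 2840 and 3024 in chow liver, a change of -0.76 lost with centring. On HFrD alone its change was -2.90. Among transporters, the efflux pump Abcb1a, above background on 2 of the 3 HFrD-NDGA arrays, fell by 1.71 and the uptake carrier Slco1b2 by 1.16, while Abcg2 rose by 1.20 and Abcc3 by 1.03.

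Cytochromes P450 of families 1 to 3 were lower in 15 of 33 and higher in 4, with a median of -0.33, and in 8 lower and 9 higher with centring. Besides Cyp2c12 and Cyp3a9, Cyp3a18 was at 8592, 7303 and 6508 in HFrD-NDGA liver and at 29275, 36293 and 26019 in chow liver, a change of -2.03 (SE 0.14). Cyp1a2, a caffeine-metabolizing enzyme, fell by 1.12 (SE 0.07) and Cyp2d4 by 1.08. Cyp2j4, an epoxygenase, was at least 2.93-fold higher, and Por, the reductase that feeds electrons to these enzymes, rose by 1.18 (SE 0.10). Of 34 conjugating enzymes 8 were higher (23.5%) and 10 lower (29.4%), against 17.5% and 13.2% of all genes, or 16 and 5 with centring. Outside the Ugt genes, Gsta5, a glutathione transferase that metabolizes aflatoxin, rose by 1.36 and was at -1.26 against chow on HFrD, and Nat8, an acetyltransferase of cysteine conjugates, fell by 1.66.

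Of 29 antioxidant genes that NRF2 is known to control, 13 were higher and 7 lower, with a median of 0.10, or 19 and 1 with centring and 10 and 6 without scaling. Nqo1, a quinone reductase, was at 1964, 1697 and 1693 in HFrD-NDGA liver and 900, 971 and 801 in chow liver, a rise of 1.00 (SE 0.10), and Gss, glutathione synthetase, rose by 1.38. Osgin1 was at 7486, 7213 and 7750 in HFrD-NDGA liver and 24443, 24443 and 24850 in chow liver, a change of -1.72 (SE 0.03). The falls of Hmox1 (-0.44), Gclm (-0.44) and Nfe2l2 (-0.53), which encodes NRF2, changed sign with centring.

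Some aldehyde dehydrogenases changed widely, in both directions. Aldh1a1, which oxidizes retinal, was at 31654, 28251 and 29773 in HFrD-NDGA liver and 5511, 5365 and 5218 in chow liver, a rise of 2.48 (SE 0.05). Aldh1a7, its close copy under a symbol not found in the gene reference, rose by 4.20 (SE 0.11). Aldh1b1, a mitochondrial form, was at 84.7, 92.7 and 83 in HFrD-NDGA liver, where 2 of the 3 arrays were above background, and at 400, 407 and 417 in chow liver, a change of -2.23 (SE 0.06), whereas it was higher by 1.83 on HFrD. Of the 18 genes, 4 were higher (22.2%) and 6 lower (33.3%), against 17.5% and 13.2% of all genes, or 4 and 2 with centring.

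Secreted liver proteins and amino acid enzymes were lower by small amounts. Of 37 complement and coagulation genes 0 were higher and 23 lower, with a median of -0.29, and of 56 genes of amino acid catabolism and the urea cycle 5 were higher and 22 lower. With centring these counts became 6 higher and 1 lower, and 24 higher and 2 lower, so the direction of both lists depended on the scaling. The falls that held were those of C1s, a complement protease, at 6968, 7556 and 5808 in HFrD-NDGA liver against 18901, 23748 and 18939 in chow liver (-1.599, SE 0.12), Prodh, proline dehydrogenase (-1.38, SE 0.07), and Hgd, of tyrosine breakdown (-1.27, SE 0.38). Amdhd1, of histidine breakdown, rose by 1.53, and Hibch, of valine breakdown, by 1.12. Asns, asparagine synthetase, a target of the amino acid response, was at least 5.73-fold higher and Trib3 rose by 1.47, while Atf3 was at least 1.68-fold lower. Of 26 acute phase genes 4 were higher (15.4%) and 7 lower (26.9%), against 17.5% and 13.2% of all genes, or 10 and 0 with centring. A2m, alpha-2-macroglobulin, rose by 1.82 (SE 0.07). The metallothioneins Mt1 and Mt2A had changes of -0.75 and -0.60, lost with centring, and had changes of -2.22 and -3.47 on HFrD.

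Antigen presentation genes had the lowest list median, -0.62, with 0 of 17 higher and 13 lower, or 1 and 4 with centring. RT1-Ba and RT1-DMb, of MHC class II, fell by 1.12 and 1.16 and had changes of -0.72 and -1.16 on HFrD. RT1 genes are a family of near copies. Macrophage and lymphocyte markers, whose sums are given above, were lower in the same arrays, and their part in this result was not tested.

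Immediate early and stress genes were lower in 13 of 24 and higher in 2, with a median of -0.37, or 9 lower and 8 higher with centring. Jun was at 269, 290 and 233 in HFrD-NDGA liver and 1020, 898 and 838 in chow liver, a change of -1.80 (SE 0.11). Egr1 (-1.56), Btg2 (-1.41), Cdkn1a (-1.19), Fos (-1.14) and Ier2 (-1.01) fell as well, each also with centring and without scaling, with Fos above background on 1 of the 3 HFrD-NDGA arrays.

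Clock genes changed on both sides, 8 higher (42.1%) and 8 lower (42.1%) of 19, against 17.5% and 13.2% of all genes. With centring 9 were higher and 4 lower. Nr1d1 (REV-ERBα), the repressor of Bmal1, was at 1138, 1209 and 1184 in HFrD-NDGA liver and at 207, 162 and 194 in chow liver, a rise of 2.66 (SE 0.09, adjusted p = 7.0e-06 in limma). Dbp, an output factor, was at 3411, 3747 and 4147 in HFrD-NDGA liver and at 556, 680 and 669 in chow liver, a rise of 2.57 (SE 0.10), and its HFrD arrays differed from chow by -0.07. Per1 rose by 1.58, Usp2 by 1.499, and Nr1d2 was at least 1.98-fold higher. On the other side, Nfil3, which opposes Dbp, was at 482, 428 and 296 in HFrD-NDGA liver and 1875, 2383 and 1623 in chow liver, a change of -2.30 (SE 0.22). Bmal1, of the positive limb, fell by 0.96, at 538, 527 and 427 in HFrD-NDGA liver against 960, 969 and 948 in chow liver. Cry1 fell by 1.45 and Rora by 0.96. The hour at which each group was killed was not given in the sources used here.

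**Figure D4:**
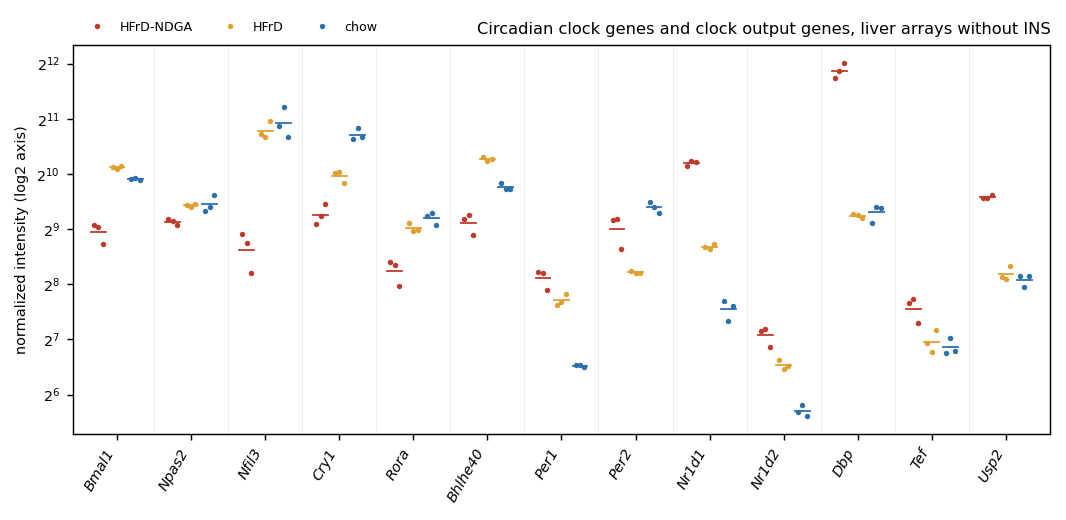
Normalized intensity (log2 axis) of 13 clock and clock output genes on the 3 arrays each of HFrD-NDGA, HFrD and chow liver, with lines at the means of the log2 values. Bmal1, Nfil3, Cry1 and Rora lie lower and Nr1d1, Dbp, Per1 and Usp2 higher on HFrD-NDGA arrays than on chow arrays, with no overlap for any of these 8. Of all genes, 39.7% had no overlap between these groups.

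Proteasome subunits rose by small amounts, 23 of 39 with 2 lower and a median of 0.30, also with centring (33 higher, 1 lower) and without scaling (24 and 3). The rise was not seen on the liver INS arrays, with 3 higher, 5 lower and a median of 0.02. Of all genes 7.19% were higher and 10.3% lower on those arrays. Mitochondrial ribosomal proteins were higher in 22 of 70 (31.4%) and lower in 3 (4.3%), against 17.5% and 13.2% of all genes. On the INS arrays 8 were higher and 10 lower, with a median of -0.03. Respiratory chain and ATP synthase subunits had 11 of 78 higher (14.1%), 8 lower (10.3%) and a median at 0, or 48 higher with centring. The shares of the respiratory chain list were near the 17.5% and 13.2% of all genes. Of 25 cell cycle genes 4 were higher (16%) and 6 lower (24%), against 17.5% and 13.2% of all genes. The mitotic genes Ccnb1, Cdk1 and Plk1 were above background in chow liver alone. They were at least 1.04-fold, 1.01-fold and 1.15-fold lower in HFrD-NDGA liver. In the lipoxygenase list, 5 of 18 were higher (27.8%) and 4 lower (22.2%), or 1 and 5 without scaling. Alox15, a lipoxygenase that NDGA is known to inhibit as an enzyme, was above background neither in HFrD-NDGA liver (33.3, 35.6 and 19.9) nor in chow liver (16 on each array), while its HFrD arrays stood at 462, 508 and 524.

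A further 6 liver arrays carry the same diets with INS in the label, a mark that no source used here explains. There, HFrD-NDGA-INS against chow-INS called 1423 genes higher (7.19%) and 2035 lower (10.3%). Brightness stood the other way round, with 57.2% to 61.8% of probes detected on HFrD-NDGA-INS arrays and 52.4% to 57.6% on chow-INS arrays. Centring gave 1030 higher and 5057 lower, and no scaling 5888 higher and 443 lower. Without the third chow-INS array the counts were 879 and 1202, and without the first 995 and 1266. Without the second, 1349 genes were lower. Of the 3472 genes higher without INS, 671 were also higher with INS (19.3% of these and 47.2% of the INS calls) and 179 were lower. Of the 2610 lower ones, 750 were lower with INS as well (28.7% and 36.9%) and 89 were higher.

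Among genes that changed at least 2-fold the share in the same direction was higher for rises and about the same for falls. Of 416 genes at least 2-fold higher without INS, 228 were also higher with INS (54.8%) and 5 lower, and of 569 at least 2-fold lower 160 were lower (28.1%) and 13 higher. With centring the shares among 2-fold changes were 23.8% and 22%, and without scaling 97.5% and 8.91%. Over all 19791 genes, which are not independent replicates, Pearson's r of the changes was 0.195 and Spearman's rho -0.0371. All 15 named rises and 14 of the 15 named falls passed in the same direction with INS, Acot1 by 8.70 and Vnn1 by 4.30. The exception was Nipsnap2, at 0.23.

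**Figure D5:**
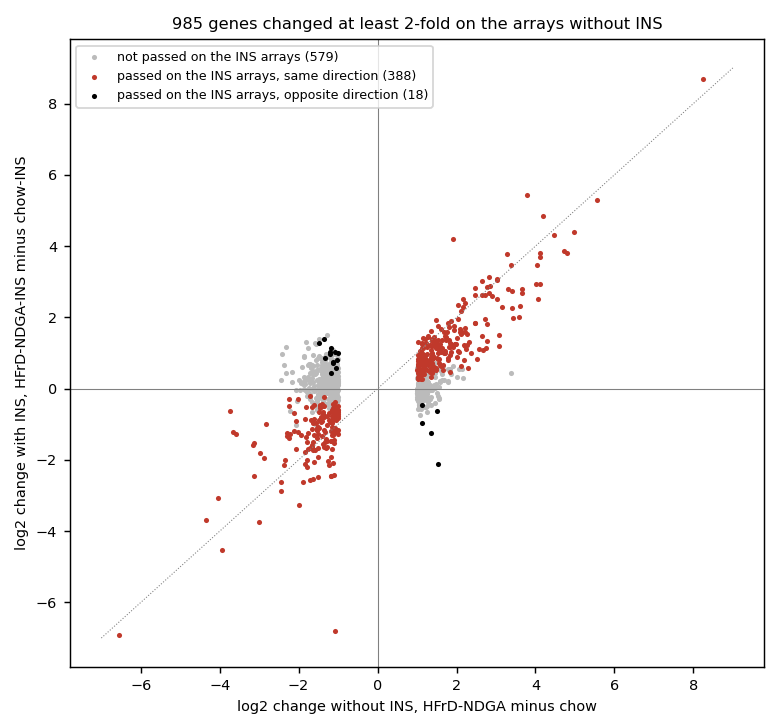
Log2 change on the INS arrays (HFrD-NDGA-INS minus chow-INS) against that on the arrays without INS (HFrD-NDGA minus chow), 1 point for each of the 985 genes that changed at least 2-fold without INS, with the line of equal change dotted. Of these, 388 passed in the same direction on the INS arrays, 18 in the opposite direction and 579 did not pass.

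Oxidation genes were also higher on the INS arrays. Ehhadh rose by 2.85 with INS, Crat by 1.95 and Ppara by 1.48, and 17 of 25 mitochondrial genes (median 0.63) and 14 of 28 peroxisomal genes (median 0.31) were higher there. Scd1 (2.69), Me1 (2.27) and Elovl6 (1.56) rose too. The changes of Fasn (0.34) and Thrsp (0.26) did not pass with INS. Among clock genes Nr1d1 rose by 2.64 and Dbp by 1.12 while Usp2 fell by 0.62.

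The difference between the changes without and with INS was itself tested, and it passed for 29.4% of all genes, for 9 of the 15 named rises and for 13 of the 15 named falls. The named genes were picked for large changes without INS, so smaller changes with INS follow in part from that choice, and their share is not evidence of a difference. The largest among the named genes was that of Gadd45g, which fell by 3.75 without INS and by 0.63 with it, a difference of -3.15 (SE 0.08, adjusted p = 1.3e-10 in limma). For Acot1 (-0.39) and Vnn1 (0.19) it did not pass.

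The change was also set against that in muscle and adipose tissue of the same diet groups. The difference of the HFrD-NDGA against chow change between liver and muscle passed for 29.9% of all genes. That between liver and adipose tissue passed for 31.2%. All 30 named genes were among both, but they were picked for large changes on the liver arrays. Their share follows in part from that choice and is not evidence of liver specificity. In muscle 2 of the named rises also rose, Acot1 by 2.69 and Aqp7 by 0.91. Cish, lower in liver, was higher by 3.26 in muscle and fell by 2.09 in adipose tissue. Among adipocyte markers, Adipoq (1.40), Cfd (1.12) and Retn (1.08) were also higher in HFrD-NDGA than in chow muscle. Hepatocyte markers Alb (1.02) and Cps1 (0.70) were higher there as well, and no marker of either list fell. The part of fat or liver tissue in the muscle pools was not tested. In muscle 1 of the 15 named rises, Ucp3, fell by 0.55, and 2 of the named falls, Gadd45g and Dhrs7, fell as well. In adipose tissue 0 of the 15 named rises rose and 6 fell, while 6 of the 15 named falls fell and 1, Ltc4s, rose by 1.02. Of all 19791 genes, 1104 were higher and 774 lower in muscle, and 1545 and 1639 in adipose tissue. Every skeletal muscle marker was lower in HFrD-NDGA than in chow adipose tissue, such as Acta1 (-5.39), Myh4 (-5.09) and Ckm (-4.01). The falls counted in adipose tissue include Ucp3 (-0.87) and Fbp2 (-0.57). The part of muscle tissue in the adipose pools was not tested.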

How the data were processed

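Rat liver, muscle and adipose RNA was hybridized to a one-colour (Cy5) whole-genome oligonucleotide array, 54 arrays in 18 groups of 3. The deposited intensities were read by the authors with GenePix and are linear and background-subtracted, from -44 to 65506. The p-values deposited beside them are per-spot detection calls, whose method is not given in the sources used here, and they served only to call probes above background (p under 0.05). The quantile step and log2 transform that the study's methods name were not in the deposited values, so both were applied here. Both tables hold the same values, and no pair of arrays was identical.

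Of 24358 probes, 21270 had 1 symbol, 1175 had several and 1913 had none. Probes with several symbols were tested under the joined symbols and count among the 19791 genes. They were left out of the named genes and the lists. Of 18773 symbols, 13431 were current in the RefSeq gene table, 2585 were updated and 2720 were not found. The 9 liver arrays without INS were quantile normalized together, raised to a floor of 16 and taken to log2, and the brightest probe stood for a gene (2518 of 19791 genes had several). limma 3.58.1 in R 4.3.3 fitted all 3 liver groups (lmFit, eBayes, Benjamini-Hochberg, adjusted p under 0.05), and the script was tested on simulated data. HFrD-NDGA-INS against chow-INS was taken from the liver INS arrays of all 3 diets, normalized and fitted apart. The difference between the changes without and with INS used the 18 liver arrays normalized together. It therefore need not equal the gap between the separate changes. Tissue contrasts used the 27 arrays without INS. The number of arrays limits the precision.

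Named genes were the 15 largest rises and 15 largest falls that passed, with a symbol found in the reference, no saturated array (65000 or more), detection on every array of the brighter group and no overlap, and then list members, largest changes first. The genes and lists were chosen with earlier results of these data known. Alternatives covered scaling, floor, detection filter, probe choice, variance model, arrays in the fit, a 2-fold threshold and leaving out each array. Some list members are not reported here.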

Additional observations from a re-analysis of the deposited data

Results flagged for a closer look

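Each result here was singled out because the change, HFrD-NDGA minus chow, differed between groups of arrays by limma's test of the difference itself. Every group held 3 arrays, so no array was tested as an outlier. Between the liver arrays without and with INS, 5820 genes differed, between liver and muscle 5919, and between liver and adipose tissue 6181.

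Among the named rises, the change without INS minus that with INS was 1.598 for Sdr16c6 (adjusted p = 7.2e-05 in limma), 1.57 for Trim80, 1.33 for Acot3, 1.21 for Hdc, 1.12 for Fbp2, 0.88 for Ucp3, 0.63 for Spmip11 and 0.62 for Aqp7, all larger without INS. Pbsn went the other way, at -1.62, with a larger rise on the INS arrays.

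Among the named falls, Gadd45g (-3.15), Nipsnap2 (-2.70), Ugt2b (-2.48), Ugt2a3 (-2.34), Dusp1 (-1.83), Cish (-1.63), Cdh17 (-1.57), Cyp3a9 (-1.16), Cyp4a2 (-1.001), Ugt2b1 (-0.93), Cyp2c12 (-0.70) and Ltc4s (-0.70) fell further without INS. Dhrs7 fell further with INS, a difference of 0.44. The change of Nipsnap2 with INS, 0.23, did not pass. The named genes were picked for large changes without INS, so smaller changes with INS follow in part from that choice. Brightness of the arrays, given in the report, stood in opposite order in the arrays without and with INS, and its part in these differences was not tested.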

How the results depend on the processing

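The 30 named genes kept direction and call in all 660 combinations of gene and alternative. Counts depended more on the settings than the named genes did. Against 6082 genes in all, 3472 higher and 2610 lower, centring gave 9702 (7463 higher and 2239 lower, 76.9% higher), sharing 4710 calls, and no scaling gave 5607 (1860 higher and 3747 lower, 33.2% higher), sharing 4033. Fitting only the 6 HFrD-NDGA and chow arrays gave 3823 (2259 higher and 1564 lower), or 3843 (2267 and 1576) with the quantile step also over these 6. Adding a 2-fold threshold left 985 (416 and 569). The other alternatives gave 4837 to 8077, and leaving out 1 array 4186 to 7340 (2371 to 4237 higher, 1815 to 3103 lower).

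With INS, against 3458 genes, centring gave 6087 (1030 higher and 5057 lower), no scaling 6331 (5888 and 443), and leaving out 1 array 2081 to 3762 (879 to 1442 higher, 1202 to 2320 lower). The difference between arrays without and with INS, 5820 genes, became 12043 with centring and 8081 without scaling, and 4146 to 7290 with 1 array left out. Centring also gave 8890 genes that differed from muscle and 11228 that differed from adipose tissue, and leaving out 1 array 4824 to 7217 and 5120 to 7384. Root mean square distances became 0.718 (HFrD-NDGA and chow), 0.561 (HFrD-NDGA and HFrD) and 0.554 (HFrD and chow) with centring, and HFrD-NDGA and HFrD lay at 0.556 over detected genes. A stricter threshold lowers counts by construction, and for the rest the cause was not tested.

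No paired analysis was possible because the replicate numbers name repeat arrays in accession order and pair nothing across groups. Of the genes tested, 6215 were above background in neither group, so changes of dim genes could not be sized. Arrays repeat 1 pool per group, which leaves differences between rats unmeasured.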

Other observations

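A few features outside the lists and the naming rule were chosen after their values were seen. The symbol LOC367746, not found in the gene reference, was at 36.8, 44.9 and 26.9 in HFrD-NDGA liver, 2239, 2163 and 2387 in HFrD liver and 3336, 3390 and 3241 in chow liver. Its change of -6.55 against chow was -6.92 on the INS arrays. LOC100361007, also not found, was at 3980, 4107 and 4536 in HFrD-NDGA liver and 133, 194 and 131 in chow liver, 28-fold higher.

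Noct, a rhythmic phosphatase of NADPH known as nocturnin, was at 730, 778 and 673 in HFrD-NDGA liver and 61.2, 79.8 and 71.1 in chow liver, a rise of 3.37, and its change of 0.44 on the INS arrays did not pass. RT1-Bb fell by 1.09 without INS and by 6.81 with INS. Psmb5, a proteasome subunit, was at 694 on the first HFrD-NDGA array and at 16129 and 17336 on the others, against 16303 to 18480 in chow liver, and did not pass (adjusted p = 0.37 in limma).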
